A study of Mus musculus with 22 samples.

Results

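The p53 target genes examined here were 10 protein-coding genes, Cdkn1a, Mdm2, Ccng1, Btg2, Bax, Bbc3, Pmaip1, Trp53inp1, Sesn2 and Phlda3, taken by symbol out of the 22350 protein-coding genes of the GENCODE vM1 annotation (mouse genome build mm9) as textbook targets of p53. Their RNA polymerase II (PolII) occupancy was followed from nocodazole arrest in prometaphase to late-G1. The cells were G1E-ER4, a mouse line derived from the GATA1-null proerythroblast line G1E, used here without activation of its GATA1-ER fusion. Both alleles of CTCF, the architectural DNA-binding protein, carried an auxin-inducible degron fused to mCherry, and a transduced OsTiR construct allowed auxin to trigger degradation of the protein. All groups, the untreated control included, shared the tagged alleles, the transgene and the arrest with 200 ng/ml nocodazole for 7 to 8.5 h, so that each library stems from cells that had been held in mitosis by a drug. Cells were harvested at 0, 60, 120 or 240 min after release (prometaphase, early-G1, mid-G1 and late-G1), with auxin or without, and were sorted after crosslinking on a mitotic phospho-epitope, DNA content and mCherry. Of the 22 samples, 18 were PolII ChIP-seq libraries with 1 peak list each, and 4 were inputs, 1 per stage, that served control and auxin libraries alike. By the sample labels, each stage had 2 control and 2 auxin PolII libraries, except mid-G1, which had 3 of either kind. The paper's reporting summary is not uniform on late-G1 auxin replicate 1. Its list of reads includes that library, whereas its list of peaks holds a late-G1 control replicate 1 in place of it. The labels were followed here.

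The transcription factor p53 is held at a low level by the ubiquitin ligase Mdm2, itself a p53 target, in a negative feedback loop. When p53 is stabilized, its targets stop the cell cycle, promote apoptosis, or adjust repair and metabolism. A prolonged mitosis is among the conditions known to engage this pathway. The PolII lists show where polymerase was enriched over background, which is neither an RNA level nor the amount of p53. The libraries came from sorted cells in bulk, in which fewer cells with polymerase at a gene and less polymerase per cell cannot be told apart.

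For each gene, peaks overlapping the annotated gene with 2000 bp on either side were collected in each list. The strongest of them, by fold enrichment over the local background, was given its rank among all peaks of that list, with rank 1 for the strongest. Ranks were compared as −log2 of the rank, on which a change of −1 is a rank number 2 times as large, a weaker place in the list. Post-mitotic lists held 50594 to 117125 peaks and prometaphase lists 2414 to 3918. Depth recovered from the lists ran from 4.54 reads per kb of genome in mid-G1 control replicate 1, which also had the shortest post-mitotic list, to 13.3 in late-G1 control replicate 3. All 10 erythroid progenitor markers (Kit, Gata2, Tal1, Lmo2, Gfi1b, Myb, Epor, Tfrc, Klf1 and Nfe2) had a peak in all 14 post-mitotic libraries. None of 4 granulocyte and macrophage markers had a peak in any of them. Of 3 hepatocyte markers, Alb and Ttr had none and Apoa2 had a peak in its window in 5 of 14 libraries, and of 4 lymphoid markers only Cd79a had peaks, in all 14 libraries within its window.

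Of the 10 genes, 9 had a peak in all 14 post-mitotic libraries, compared with 45.2% of all coding genes. The exception was Pmaip1, which encodes the BH3-only protein Noxa and had no peak in its window in any of the 18 lists. In prometaphase, 5 of 10 members had a peak in all 4 libraries, compared with 5.12% of coding genes. These were Cdkn1a, Mdm2, Ccng1, Btg2 and the window of Bax, in which the prometaphase peak lay at the promoter of the neighbour Ftl1. Phlda3 had no prometaphase peak, and Sesn2 had 1, in control replicate 1 (rank 787). Trp53inp1 and Bbc3 each had a peak in both control and in neither auxin library in prometaphase, a pattern shown by 1.03% of coding genes. The reverse pattern was shown by 0.246% of coding genes and by no member. Of all coding genes, 12.1% and 10.3% had a peak in the control lists and 10.5% and 7.78% in the auxin lists. The control ranks were 2555 and 1933 for Trp53inp1 and 1260 and 1063 for Bbc3, in lists of 3918 and 3221 peaks. The auxin lists held 3539 and 2414 peaks, and absence of a peak in a list this short leaves room for signal under the threshold.

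**Figure D1:**
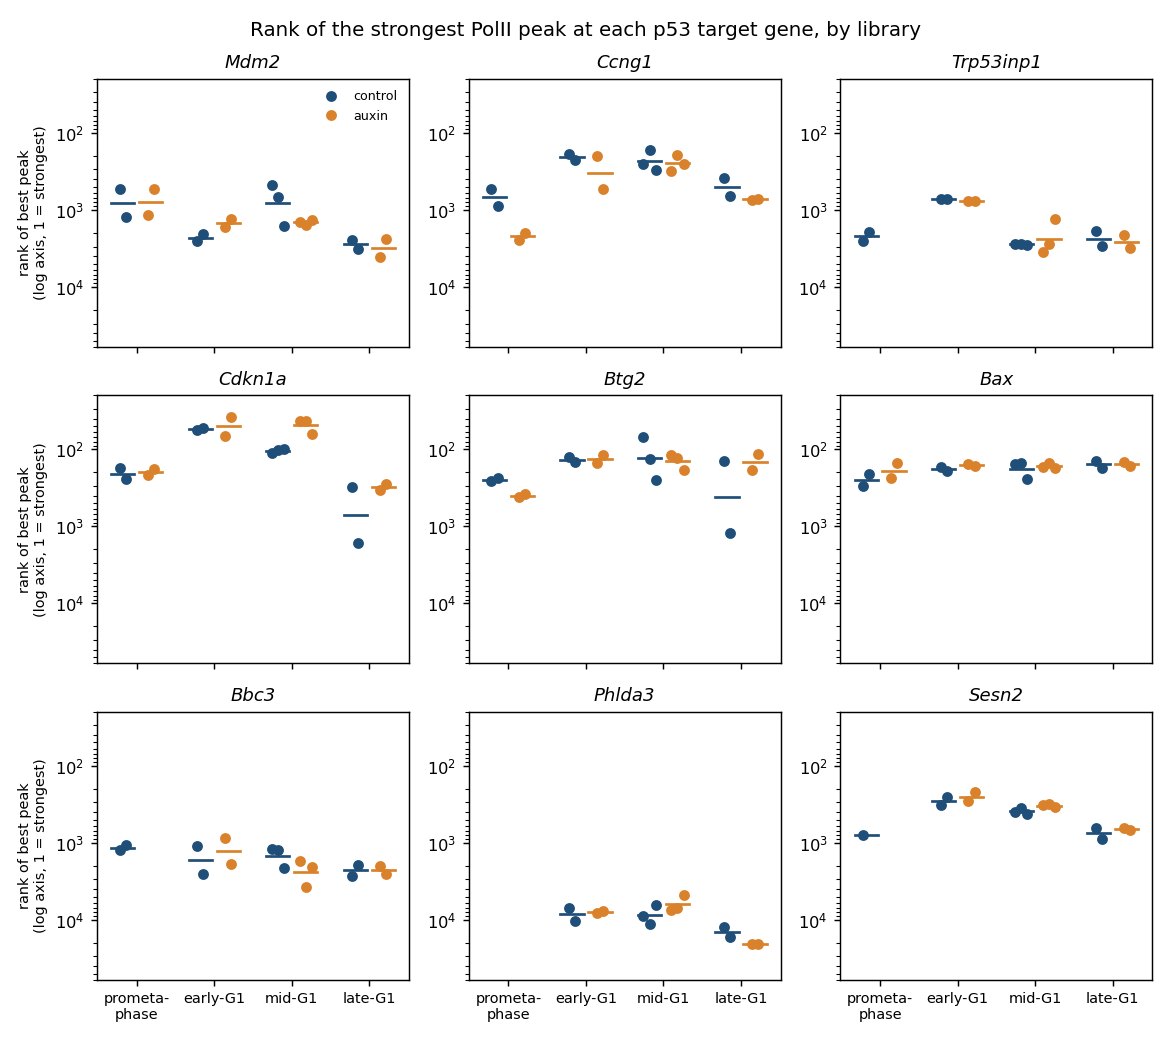
Rank of the strongest PolII peak within 2000 bp of each gene (vertical log axis, rank 1 at the top) against stage, for the 9 members with a peak; each point is a library, short bars are geometric means of the libraries of a condition. Cdkn1a, Trp53inp1 and Sesn2 stood higher in all early-G1 than in all late-G1 libraries, and Ccng1 did so except for late-G1 control replicate 2. The Bax window stayed at a rank of 141 to 241 throughout the post-mitotic stages.

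The feedback arm was represented by Mdm2, Ccng1 and Trp53inp1. Mdm2 (chr10:117125944-117147814, minus strand) has a constitutive promoter and an internal one that responds to p53. Its best peak had ranks of 533 and 1260 in the control and 1169 and 542 in the auxin libraries of prometaphase. In early-G1 they were 2579 and 2056 in control and 1653 and 1323 with auxin, and in late-G1 2471 and 3209 in control and 4094 and 2408 with auxin. Early-G1 and late-G1 overlapped. In mid-G1 the ranks ran from 479 to 1632, but in 3 of these 6 libraries the strongest peak lay 22280 to 22942 bp downstream of the outermost start, where the convergent gene Cpm ends. In the other post-mitotic libraries the summit lay 17 to 136 bp inside the gene or, in 3 libraries, 744 to 801 bp, past the annotated starts at 680 and 736 bp.

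Ccng1 (chr11:40562054-40568813, minus strand) encodes cyclin G1, which recruits a phosphatase to Mdm2. A 20-base match to the p53 response element consensus lies in its first intron, 356 to 375 bp from the start, at chr11:40568438-40568457. The stretch is printed on the gene's strand with the match in capitals.
Ccng1 intron 1, chr11:40568408-40568487: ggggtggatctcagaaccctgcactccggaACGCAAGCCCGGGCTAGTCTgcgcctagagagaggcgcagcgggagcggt
A peak covered this match in all 14 post-mitotic libraries and in 1 of 4 prometaphase libraries. The best peak of Ccng1 had ranks of 533 and 895 in control and 2443 and 2006 with auxin in prometaphase. It had ranks of 190 and 227 in control and 203 and 532 with auxin in early-G1. The late-G1 ranks were 385 and 655 in control and 737 and 720 with auxin. All late-G1 libraries but control replicate 2 were therefore weaker than all 4 early-G1 libraries.
The summit of Ccng1 also moved. It lay 120 to 182 bp inside the gene in all 10 early-G1 and mid-G1 libraries and at −199 to −179 bp, upstream of the start, in all 4 late-G1 libraries. In the stretch printed next, capitals span the late-G1 summits.
Ccng1 upstream, chr11:40568962-40569042: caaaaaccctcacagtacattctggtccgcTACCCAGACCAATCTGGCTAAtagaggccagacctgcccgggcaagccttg

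Trp53inp1 (chr4:11083578-11101526, plus strand) encodes a stress-induced nuclear protein that promotes p53 activity. Its ranks were 720 and 721 in control and 759 and 772 with auxin in early-G1. In late-G1 they were 1893 and 2993 in control and 2138 and 3152 with auxin, so that the stages did not overlap. Its summit lay upstream of the outermost start, at −260 to −189 bp, in all 14 post-mitotic libraries. Capitals span those summits.
Trp53inp1 upstream, chr4:11083288-11083419: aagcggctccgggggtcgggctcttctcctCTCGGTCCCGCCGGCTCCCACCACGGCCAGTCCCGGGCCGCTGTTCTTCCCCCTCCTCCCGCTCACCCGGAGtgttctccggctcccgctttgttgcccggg

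The arrest arm was represented by Cdkn1a and Btg2. Cdkn1a (chr17:29227924-29237667, plus strand) encodes p21, the inhibitor of cyclin-dependent kinases, and was the strongest member in early-G1. The ranks of its best peak were 175 and 245 in control and 219 and 178 with auxin in prometaphase. They were 56 and 53 in control and 67 and 38 with auxin in early-G1. In mid-G1 they were 111, 102 and 100 in control and 43, 43 and 64 with auxin. In late-G1 they were 311 and 1627 in control and 334 and 285 with auxin, all weaker places than in any early-G1 or mid-G1 library. Prometaphase ranks come from lists many times shorter and are not set on the same scale of strength. The pileup of the best peak over the genome-wide background was 32.4 to 42.2 times in prometaphase. It was 116 to 158 times in early-G1, 107 to 172 times in mid-G1 and 103 to 132 times in late-G1. These values are not set against other genes. Relative to the median of the genes with a peak in all 18 libraries, the log2 pileup changed by 0.004 from prometaphase to early-G1. The summit stayed in place, 2815 to 2892 bp from the outermost start in all 18 libraries, next to the annotated internal start at 2793 bp. Upstream of the outermost start lies a match to the p53 consensus, at chr17:29227873-29227892, 51 to 32 bp before the start.
Cdkn1a upstream, chr17:29227833-29227923: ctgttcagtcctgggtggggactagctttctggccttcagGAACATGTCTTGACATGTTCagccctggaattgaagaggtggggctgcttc
A peak covered the match in all 14 post-mitotic libraries and in no prometaphase library. The search took 2 half-sites of 10 bases with no spacer, intact cores and at most 2 mismatches within 2000 bp of the outermost start, and the consensus reads the same on both strands. Such a match occurred in 2.36% of all 22350 windows and at 3 of 10 members, the third being Pmaip1. A match is a likeness of letters and not evidence of binding, and the search leaves out sites with a spacer or farther away.

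**Figure D2:**
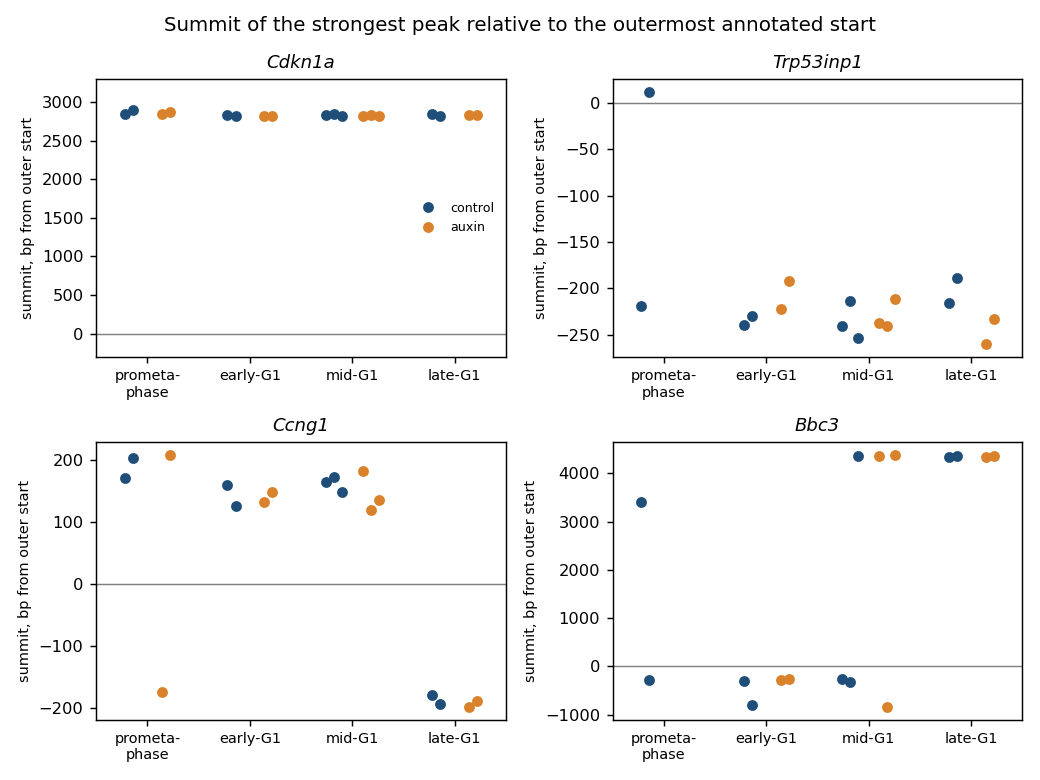
Distance of the strongest peak's summit from the outermost annotated start (vertical axis, bp, negative upstream) by stage for 4 members; each point is a library. Cdkn1a stayed near 2815 to 2892 bp, whereas Ccng1 and Bbc3 had their late-G1 summits on the other side of the start from their early-G1 summits.

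Btg2 (chr1:135971747-135975697, minus strand), an antiproliferative factor, had ranks of 120 to 149 in early-G1 and 69 to 249 in mid-G1. In late-G1 the ranks were 142 and 1212 in control and 184 and 117 with auxin. Only control replicate 3 stood apart, the library in which Cdkn1a also had its weakest rank. The summit lay 35 to 72 bp inside the gene in all post-mitotic libraries.

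The apoptotic arm was represented by Bax, Bbc3, Pmaip1 and Phlda3. Bax (chr7:52717065-52722268, minus strand) encodes a pore-forming protein of the mitochondrial outer membrane. The best peak in its window had ranks of 141 to 241 after mitosis, but its summit lay 7057 to 9742 bp from the Bax start, at or beyond the promoter of Ftl1, which encodes the ferritin light chain. These ranks therefore describe Ftl1 rather than Bax. Within 1000 bp of the Bax starts, the peak ranked 2207 to 3791 in early-G1, and 3565, 5418 and 4900 in the late-G1 libraries in which it was separate from that of Ftl1. In mid-G1 auxin replicate 2 and late-G1 control replicate 3 a single wide peak spanned both genes. In prometaphase no library had a peak at the Bax starts.

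Bbc3 (chr7:16894965-16903554, plus strand) encodes the BH3-only protein Puma. Its ranks were 1110 and 2527 in control and 881 and 1901 with auxin in early-G1, and 2706 and 1926 in control and 2027 and 2530 with auxin in late-G1, which overlapped. The position of the best summit differed between these stages. In all 4 early-G1 libraries it lay upstream of the outermost start, at −804 to −261 bp. In all 4 late-G1 libraries it lay 4340 to 4367 bp inside the gene, in an intron, past the annotated internal start at 3901 bp. Mid-G1 held 3 libraries of each kind. The intronic stretch follows, with capitals spanning the late-G1 summits.
Bbc3 intron, chr7:16899275-16899362: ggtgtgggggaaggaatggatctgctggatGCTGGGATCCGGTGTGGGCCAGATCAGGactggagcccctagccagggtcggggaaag

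Phlda3 (chr1:137662696-137665713, plus strand), which encodes an inhibitor of Akt signalling, was the weakest member with a peak. Its ranks were 7027 and 10251 in control and 8119 and 7817 with auxin in early-G1, and 12502 and 16550 in control and 20820 and 20799 with auxin in late-G1, which did not overlap. In 4 mid-G1 and 2 late-G1 libraries the strongest peak had its summit 4930 to 5369 bp from the start, downstream of the annotated gene, so that its rank is not that of the promoter.

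The metabolic arm was represented by Sesn2 (chr4:132047947-132066416, minus strand), which encodes sestrin 2, a stress-induced inhibitor of mTORC1 signalling. Its ranks were 328 and 252 in control and 288 and 220 with auxin in early-G1. In mid-G1 they ran from 318 to 420, and in late-G1 they were 643 and 897 in control and 652 and 676 with auxin. Each late-G1 library was weaker than every earlier post-mitotic one. The summit lay 37 to 90 bp inside the gene throughout, and a processed transcript, Gm12981, overlaps the gene on the same strand.

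To compare stages, limma was fitted to −log2 ranks of the 10096 genes with a peak in all 14 post-mitotic libraries, 9 members among them. Since the members were chosen with earlier results of these data known, shares over all genes are given as a description. From early-G1 to late-G1, 5 of 9 members moved to a weaker rank at an adjusted p under 0.05, compared with 7.07% of all genes tested, and no member moved to a stronger one, compared with 6.37%. The median change was −1.07 over the 9 members and 0.001 over all genes. The change was −3.16 ± 0.40 (SE, 4 libraries per stage, adjusted p = 0.000201) for Cdkn1a and −1.74 ± 0.31 (adjusted p = 0.00178) for Trp53inp1. It was −1.40 ± 0.24 (adjusted p = 0.00147) for Sesn2, −1.21 ± 0.33 (adjusted p = 0.0248) for Ccng1 and −1.07 ± 0.27 (adjusted p = 0.0167) for Phlda3. Mdm2 (−0.69 ± 0.34), Btg2 (−0.87 ± 0.53) and Bbc3 (−0.63 ± 0.36) did not pass, nor did the Bax window (0.12 ± 0.24). The Ccng1 call was lost without any 1 of 6 libraries (both early-G1 control libraries, early-G1 auxin replicate 1, late-G1 control replicate 3 and both late-G1 auxin libraries), with changes of −1.28 to −0.86, and the Phlda3 call without early-G1 control replicate 1, either early-G1 auxin library or late-G1 auxin replicate 1, with changes of −1.09 to −0.94.

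The 2 intervals contributed unequally. From early-G1 to mid-G1 only Trp53inp1 was called, at −1.80 ± 0.28 (adjusted p = 0.000753), compared with 8.06% of genes called weaker and 5.42% called stronger. From mid-G1 to late-G1, 5 of 9 members were called weaker, compared with 3.62% of genes, and none stronger, compared with 4.57%. These were Cdkn1a (−2.71 ± 0.36), Mdm2 (−1.46 ± 0.31), Ccng1 (−1.33 ± 0.30), Phlda3 (−1.23 ± 0.25) and Sesn2 (−0.98 ± 0.22), with adjusted p-values of 0.000522, 0.00951, 0.0133, 0.00716 and 0.0114 in the same order. For Mdm2 and Phlda3 the mid-G1 value rests in part on peaks outside the gene, as given above. The Mdm2 call was lost without late-G1 auxin replicate 1 (−1.27), and the Ccng1 call without that library (−1.32) or without late-G1 control replicate 3 (−1.14).

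The rank is built on fold enrichment, whose denominator is a local background taken from the input of the stage, and stage and input cannot be told apart here. For Cdkn1a the pileup at the summit, in fragments, was 218 and 247 in control and 197 and 219 with auxin in early-G1, and 199 and 221 in control and 186 and 174 with auxin in late-G1. These counts are not scaled for the unequal depth of the libraries. Over the genome-wide background of each library the pileup was 116 to 158 times in early-G1 and 103 to 132 times in late-G1. The local background was equal to the genome-wide level in all early-G1 and mid-G1 libraries and 1.69, 1.91, 2.01 and 1.76 times that level in the 4 late-G1 libraries. The summit pileup was also compared on a log2 scale, relative to the genome-wide background and with each library centred on its median. This measure was added after seeing the data. On it Cdkn1a changed by −0.13 ± 0.16 (limma, adjusted p = 0.693) and was not called. The part of the local background in its rank change was not tested. Among the post-mitotic stages, Trp53inp1 had a raised local background in mid-G1 alone, at 1.31 to 1.72 times the genome-wide level, and its change from early-G1 to mid-G1 was −0.18 ± 0.11 (adjusted p = 0.345) on the pileup. No member was called for that interval on the pileup in either direction, compared with 5.23% of genes higher and 2.41% lower. From mid-G1 to late-G1 the pileup called 1 of 9 members lower, Phlda3 (−1.21 ± 0.15, adjusted p = 0.00219), compared with 0.485% of genes, and none higher, compared with 0.238%. As for the rank, this Phlda3 value rests in part on peaks downstream of the gene. The mean pileup of its best peak over the genome-wide background was 35.9 in mid-G1 and 14.9 in late-G1. Within 1000 bp of the Phlda3 starts it was 27.5 and 15.7. Cdkn1a (−0.26 ± 0.14), Mdm2 (−0.39 ± 0.13), Ccng1 (−0.43 ± 0.13) and Sesn2 (−0.39 ± 0.11), called by rank over this interval, had adjusted p-values of 0.477, 0.221, 0.185 and 0.118 in the same order. From early-G1 to late-G1, 3 of 9 members were called lower on the pileup, compared with 3.17% of genes, and none higher, compared with 5.76%. They were Phlda3 (−0.76 ± 0.17, adjusted p = 0.0110), Trp53inp1 (−0.55 ± 0.12, adjusted p = 0.0103) and Sesn2 (−0.40 ± 0.12, adjusted p = 0.0460). The median change was −0.31 for members and 0.008 for all genes.

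**Figure D3:**
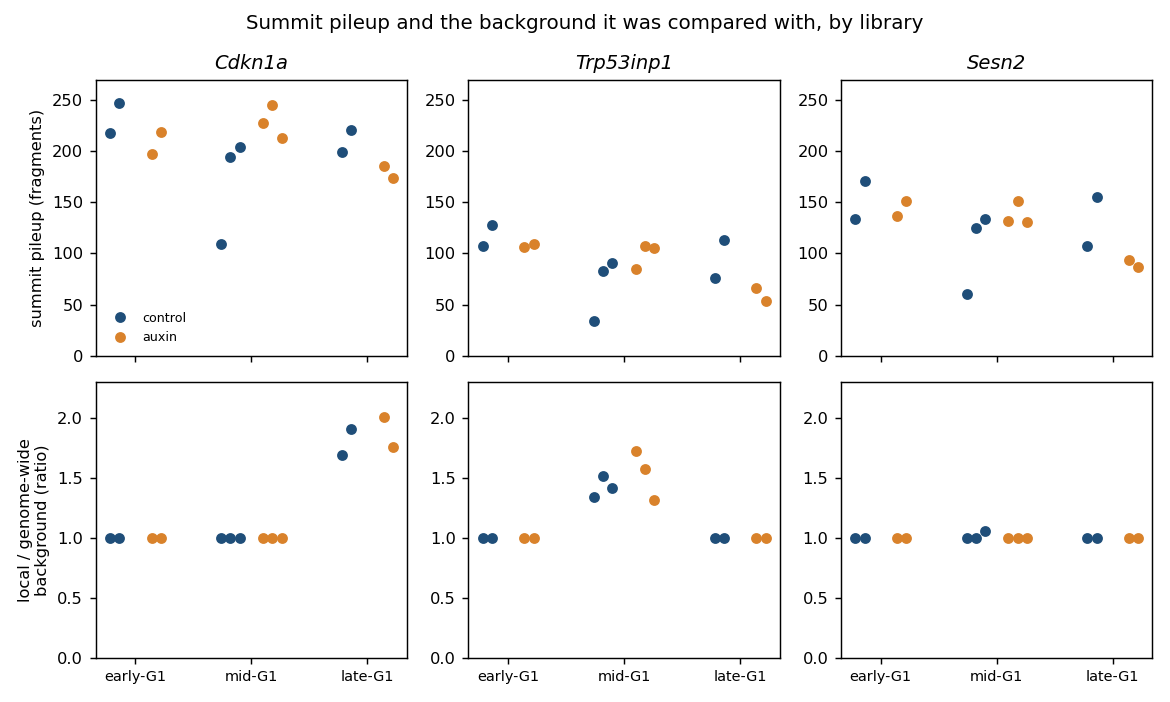
Pileup at the summit of the strongest peak (top row, fragments) and the local background of that peak divided by the genome-wide background of the library (bottom row, ratio) for 3 members in the post-mitotic libraries. Each point is a library, and the fragments are not scaled for its depth. At Cdkn1a the background ratio was 1.69 to 2.01 in late-G1 and 1 before, while at Sesn2 it stayed at or near 1 in each library.

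Peak extent was compared as log2 of the bases of the gene window covered by peaks plus 200, over the 11275 genes with a mean of at least 200 covered bases, each library centred on its median gene. Changes are thus relative to the median gene, and without centring 560 genes in place of 3136 were called between early-G1 and late-G1, with 4 members called in either case. From early-G1 to late-G1, 4 of 9 members lost covered bases, compared with 14.6% of genes, and none gained, compared with 13.3%. Sesn2 changed by −1.54 ± 0.18 (adjusted p = 0.000128), Trp53inp1 by −1.06 ± 0.23 (adjusted p = 0.00436), Phlda3 by −0.87 ± 0.28 (adjusted p = 0.0371) and Bbc3 by −0.60 ± 0.18 (adjusted p = 0.0267). Cdkn1a changed by 0.15 ± 0.23 (adjusted p = 0.669). The Bbc3 and Phlda3 calls were each lost on leaving out any 1 of 7 libraries, to −0.64 to −0.52 for Bbc3 and −0.96 to −0.65 for Phlda3. These were all 4 early-G1 libraries and both late-G1 auxin libraries for both genes, and late-G1 control replicate 3 for Bbc3 and late-G1 control replicate 2 for Phlda3. Sesn2, Trp53inp1 and Phlda3 were the members called lower by rank, pileup and covered bases alike.

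**Figure D4:**
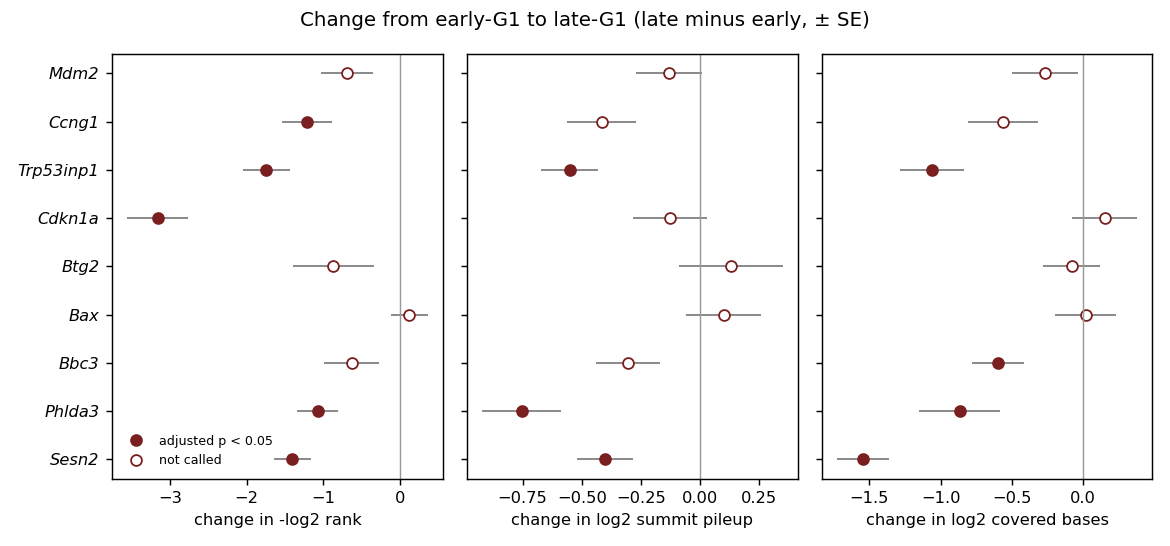
Change from early-G1 to late-G1 for 9 members in 3 measures, −log2 rank of the best peak, log2 summit pileup and log2 covered bases (horizontal axes, late minus early, with SE bars); filled points passed an adjusted p of 0.05 in limma. Cdkn1a had the most negative change in rank, −3.16, and was near 0 in pileup and covered bases.

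Coverage of gene bodies, from 500 bp after the outermost start to the annotated end, separated the members further. In prometaphase at most 8.69% of any member's body was covered, at Cdkn1a. The Cdkn1a stretch holds the internal start next to which the best summit lay in all 18 libraries. Its coverage at each stage therefore includes that promoter peak. At Sesn2 it was 66.3% and 68.6% in control and 69.8% and 66.8% with auxin in early-G1, and 13.3% and 11.2% in control and 16.9% and 11.8% with auxin in late-G1. At Trp53inp1 it was 77.5% and 83.6% in control and 59.2% and 52.6% with auxin in early-G1, and 24.7% and 25.4% in control and 19.4% and 10.9% with auxin in late-G1. Both genes lost most of the covered body while a peak remained at the start. Bbc3 went from 90.8% ± 0.35 to 50.5% ± 3.69 (SD, n = 4 per stage), Mdm2 from 90.8% ± 5.15 to 64.8% ± 4.13, Ccng1 from 87.5% ± 13.6 to 48.8% ± 13.8 and Phlda3 from 20.7% ± 16.7 to 2.71% ± 3.93. Each SD pools 2 control and 2 auxin libraries, so that it includes any difference between conditions. At Ccng1 the control and auxin means were 97.5% and 77.5% in early-G1 and 60.2% and 37.3% in late-G1, a difference that was not tested. In these 6 genes all 4 late-G1 libraries lay below all 4 early-G1 libraries, compared with 14.3% of 9935 genes. That share was not matched for coverage in early-G1, and the percentages were not centred per library. The body of Cdkn1a was covered to 81.6% ± 2.25 in early-G1 and 83.8% ± 2.84 in late-G1, and those of Btg2 and Bax also overlapped between the stages, Bax including polymerase that continues into Ftl1. Over the 9 members the median coverage was 81.6% in early-G1, 63.6% in mid-G1 and 48.8% in late-G1, whereas over all 9935 genes it was 10.7%, 7.54% and 9.40%.

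**Figure D5:**
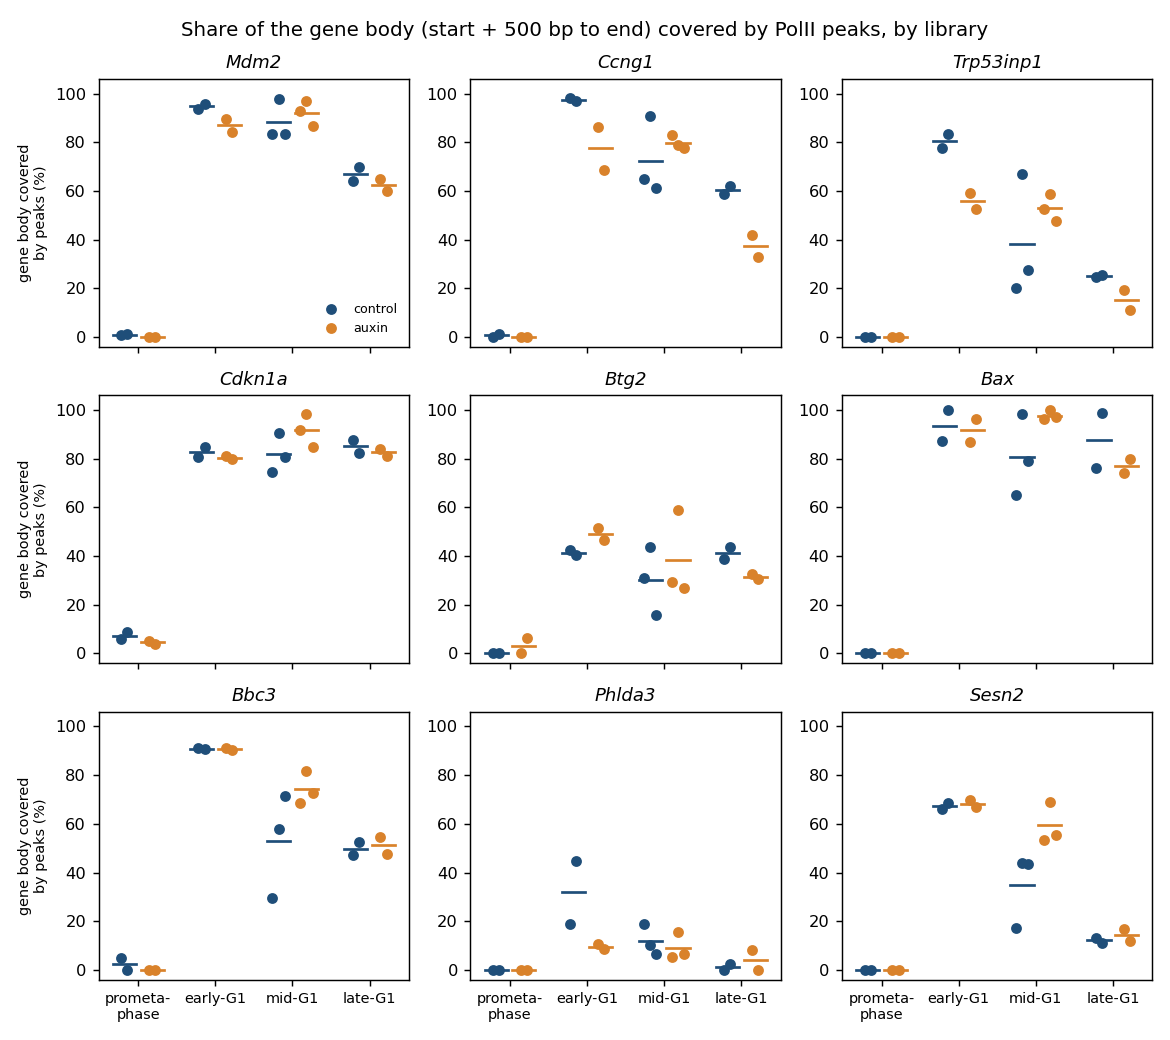
Share of the gene body covered by PolII peaks (vertical axis, %) by stage for 9 members; each point is a library and short bars are means of a condition. In late-G1 the highest value was 16.9% for Sesn2 and 25.4% for Trp53inp1, while the lowest post-mitotic value of Cdkn1a was 74.4%.

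Prometaphase and early-G1 were set side by side for the 1142 genes with a peak in all 18 libraries, 5 members among them. The prometaphase lists held 2414 to 3918 peaks and the early-G1 lists 100031 to 107213, so that a rank is a place among very different numbers of peaks and a difference in rank is not one of signal. By rank number Ccng1 (2.24 ± 0.36, adjusted p = 9.23e-05) and Cdkn1a (1.95 ± 0.41, adjusted p = 0.000881) had a place nearer the top in early-G1, compared with 20.6% of genes, and Mdm2 (−1.19 ± 0.41, adjusted p = 0.0232) a place farther down, compared with 24.9%. Btg2 (1.22 ± 0.52, adjusted p = 0.0604) and the Bax window (0.36 ± 0.29) did not pass. These calls depended on the scale. The normal score of the rank, which allows for list length, called 1135 of the 1142 genes and turned the direction of Mdm2 (1.46 ± 0.15). On the centred summit pileup Ccng1 was called higher in early-G1 (0.93 ± 0.12, adjusted p = 3.47e-06), compared with 17% of genes, and the Bax window, that is Ftl1, lower (−0.32 ± 0.12, adjusted p = 0.0306), compared with 37.3%. Cdkn1a (0.004 ± 0.11) and Mdm2 (−0.30 ± 0.14, adjusted p = 0.0712) were not called there. The Mdm2 call by rank was also lost without prometaphase control replicate 1 (−0.88), prometaphase auxin replicate 2 (−0.92) or either replicate 1 of early-G1 (−1.11 in both cases).

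No member's rank passed the test for a change with auxin. Averaged over the post-mitotic stages, 0 of 9 members were called, compared with 0.763% of genes (77 of 10096 by limma), and 1 member, Cdkn1a, had an unadjusted p under 0.05. The counts called were also 0 of 9 in early-G1, mid-G1 and late-G1, compared with 0.099%, 0.198% and 0.258% of genes, and at an unadjusted p under 0.05 they were 0, 1 and 1, Cdkn1a in both cases. The mean auxin changes ran from −0.43 ± 0.26 for Ccng1 to 0.80 ± 0.31 for Cdkn1a (adjusted p = 0.372), with a median of 0.01 over members and 0.005 over all genes. In mid-G1 the change of Cdkn1a was 1.09 ± 0.46 by rank (adjusted p = 0.488) and −0.02 ± 0.18 on the pileup. In late-G1 its difference rested on control replicate 3, and leaving out late-G1 control replicate 2, so that replicate 3 stood alone, turned the average change of Cdkn1a into a call (1.20 ± 0.22, adjusted p = 0.00913) and gave late-G1 calls for Cdkn1a (2.40 ± 0.45) and Btg2 (3.05 ± 0.61). The F test for a difference of the auxin change between stages called none of the 9 members, compared with 0.0495% of genes, and 0 had an unadjusted p under 0.05. The change from early-G1 to late-G1 did not pass as different between auxin and control for any member, compared with 0.0396% of genes (0 members at an unadjusted p under 0.05), and its value was nearest 0 for Sesn2 (0.002 ± 0.48). Covered bases gave 0 of 9 members for the average auxin change, compared with 2.08% of genes, and 0 at an unadjusted p under 0.05, with changes from −0.31 ± 0.22 for Phlda3 to 0.29 ± 0.14 for Sesn2.

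In prometaphase the auxin contrast called none of 5 members by rank, compared with 0.0876% of genes, and 1, Ccng1, had an unadjusted p under 0.05. Ccng1 had the largest change, at −1.68 ± 0.51 (adjusted p = 0.259), and its pileup was 19 and 16 fragments in control and 10 and 10 with auxin. On the log2 pileup this was −0.69 ± 0.17 (adjusted p = 0.0394), the 1 of 5 members called on this measure, compared with 3.5% of genes. Btg2 ranked 259 and 240 in control and 420 and 382 with auxin, without overlap, and its change of −0.68 ± 0.73 did not pass. The prometaphase lists of auxin replicate 2 and control replicate 1 were also the shortest and the longest. The parts of list length and of the local background in these differences were not tested.

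Of the other genes of the pathway, 51 were listed by symbol, 47 were in the annotation, and 39 could be tested by rank. Trp53, which encodes p53, was present in all 18 libraries with ranks of 316 to 527 in early-G1, 755 to 1748 in mid-G1 and 581 to 1989 in late-G1. It moved to a weaker rank from early-G1 to mid-G1 (−1.60 ± 0.29, adjusted p = 0.00185) and from early-G1 to late-G1 (−1.40 ± 0.31, adjusted p = 0.00838). Rank changes of single genes, here and in the next paragraph, share the limit given above that stage and input cannot be told apart. For these genes the pileup is given as counts only. Mdm4, which encodes a p53-binding relative of Mdm2, had no prometaphase peak, ranked 610 to 1095 in early-G1 and 2702 to 5205 in late-G1, and changed by −1.99 ± 0.39 (adjusted p = 0.00341). Between early-G1 and late-G1, 9 of the 39 genes moved to a weaker and 3 to a stronger rank, with a median change of −0.21, compared with 7.07% and 6.37% of all genes. On the summit pileup 4 of the 39 were lower and 1 higher, with a median of −0.08, compared with 3.17% and 5.76% of all genes. By group, 4 of 12 regulators, 1 of 6 arrest targets, 2 of 7 apoptosis targets and 2 of 14 repair and metabolism targets were called weaker by rank. On the pileup each of these groups had 1 gene called lower, and the regulators also had 1 called higher. The largest changes by rank besides Mdm4 were those of Ercc5, a nuclease of nucleotide excision repair (−1.75 ± 0.28), and Chek1, a checkpoint kinase (−1.63 ± 0.32). Stronger ranks were called for Gadd45a, a growth arrest and DNA damage gene (1.98 ± 0.36), Fdxr, ferredoxin reductase (1.39 ± 0.42), and Atr, the replication stress kinase (1.23 ± 0.28).

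From early-G1 to mid-G1, the balance of calls among the 39 genes depended on the measure, with 8 weaker and 2 stronger by rank (8.06% and 5.42% of all genes) and 4 lower and 5 higher on the pileup (2.41% and 5.23%). The weaker ranks were led after Trp53 by Ppm1d, a phosphatase that acts on p53 (−1.60 ± 0.32), and Atm, the double-strand break kinase (−1.33 ± 0.26), and the stronger were Gadd45a (1.85 ± 0.33) and Ddit4, an mTORC1 inhibitor (0.92 ± 0.28). From mid-G1 to late-G1, 3 were called weaker and 3 stronger by rank (3.62% and 4.57% of all genes), and 3 lower and 1 higher on the pileup (0.485% and 0.238%). The weaker ranks were those of Mdm4 (−1.67 ± 0.35), the death receptor gene Eda2r (−1.40 ± 0.34) and Zmat3, an RNA-binding protein gene (−1.13 ± 0.23), and the stronger those of Atr (1.43 ± 0.25) and the damage recognition genes Xpc (1.15 ± 0.27) and Ddb2 (0.91 ± 0.25). By covered bases 12 of 42 genes were lower in late-G1 than in early-G1 and 4 higher, compared with 14.6% and 13.3% of all genes, the most negative being Polk, a translesion polymerase (−2.11 ± 0.32), Apaf1, the apoptosome scaffold (−2.04 ± 0.21), and Ei24 (−1.77 ± 0.19), and the most positive Sfn (1.14 ± 0.36), Plk3 (0.99 ± 0.22) and Sat1 (0.78 ± 0.24). From prometaphase to early-G1, 3 of 4 genes tested had a weaker place in their lists, compared with 24.9% of all genes tested. None had a stronger one, compared with 20.6%. The limit of list length given above applies. The 3 genes were Rchy1 (−1.66 ± 0.43), Gtse1 (−1.37 ± 0.49) and Aen (−1.25 ± 0.42). On the summit pileup 3 of 4 were called lower, compared with 37.3% of all genes tested. By rank, 1 of 39 genes passed for auxin, compared with 0.763% of all genes, namely Sat1, which encodes a polyamine acetyltransferase (0.98 ± 0.21, adjusted p = 0.0401).

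The genes whose −log2 ranks over the 14 post-mitotic libraries most resembled those of a member are given as a description, since all genes share the libraries and the inputs. Cdkn1a was followed most closely by Mcl1, Rnps1 and Cdk12 (Pearson r of 0.958, 0.953 and 0.946), and Sesn2 by Prrc2a, Cdkn1a and 1810032O08Rik (0.955, 0.945 and 0.935). For Trp53inp1 they were Prim2, 1700001G17Rik and Atpif1 (0.913 each), for Ccng1 Nek11, Aste1 and Agpat5 (0.913, 0.913 and 0.897), and for Phlda3 Arhgdia, Actb and Nadk (0.90, 0.897 and 0.883). Btg2 was most like Rpl31, Hexim1 and Zbtb37 (0.916, 0.911 and 0.895), and Bbc3 like Hist1h4b, Klhl15 and Hist1h3a (0.777, 0.756 and 0.746). The Bax window shared its best peak with Gys1 and Ftl1 and was next most like Bcl2l11 (0.812), and Mdm2 was followed by Ifrd2, its neighbour Cpm and Gm16286 (0.946, 0.874 and 0.867). Cdkn1a and Sesn2 were the only pair of members in which a member stood among the 3 closest genes of another.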

How the data were processed

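PolII ChIP-seq peaks of 18 libraries were used; the 4 inputs entered through the peak calling alone. The submitters' processing notes name MACS2 2.1.0, bedtools 2.27.1, Bowtie2 2.2.9 and SAMtools 0.1.19, and peaks were called per library at a q limit of 0.01. The authors deposited for each peak a display score, the fold enrichment at the summit as a ratio to the local background, and the −log10 p-value and −log10 q-value of MACS2. Since no read counts were used, depth and summit pileup were solved from the deposited fold enrichment and −log10 p, which gave whole fragments in all lists (tolerance 0.001 in −log10 p).

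Peaks were assigned to each gene with 2000 bp on either side. The rank (genes with a peak in all libraries compared) and the median-centred log2 covered bases (genes with a mean of at least 200 covered bases) were fitted with limma 3.58.1 in R 4.3.3, with a mean per stage and condition, no block, and Benjamini-Hochberg adjustment over all genes tested (a call is an adjusted p under 0.05). The labels number the replicates, and p-values measure the spread between these libraries. Other scales, windows, thresholds and left-out libraries were tried as alternatives, and scripts were tested on simulated data. Members and pathway lists were chosen with earlier results of these data known. All members were named, with Trp53, Mdm4, neighbours in a window, the 3 called pathway genes per direction with the largest change, and the 3 genes most correlated with each member. Sequences were read from the mm9 genome with samtools 1.23.1.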

Additional observations from a re-analysis of the deposited data

How the results depend on the processing

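Counts of members called depended on the measure. From early-G1 to late-G1, 5 members were called by rank, 3 by the normal score of the rank and 3 by summit pileup, and 3 to 6 when 1 library was left out. From mid-G1 to late-G1 the counts were 5, 1 and 1, and 3 to 6. From early-G1 to mid-G1, 1 member was called by rank, 0 by pileup, 2 with the replicate block (Mdm2 added) and 1 to 2 without 1 library. From prometaphase to early-G1, 3 were called by rank, 5 by normal score, where Mdm2 reversed to 1.46, and 1 by log2 fold enrichment. For covered bases the count of 4 became 2 to 5 without 1 library. Auxin gave 0 members called, 0 to 1 for the average and 0 to 2 in late-G1 without 1 library, the higher counts without late-G1 control replicate 2. Detection in all prometaphase libraries fell from 5 to 3 members for the gene body without flank. Causes were not tested. Of 449 alternatives for single members, 393 kept direction and side of the threshold, and 260 of 282 for counts of members stayed within 1.5 times.

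Over all genes, the counts under other settings were 348 to 1748 for early-G1 to late-G1 (1357 reported), 73 to 1036 for mid-G1 to late-G1 (826), 462 to 1684 for early-G1 to mid-G1 (1361), 333 to 1135 for prometaphase to early-G1 (519), 12 to 140 for the average auxin change (77), 560 to 3786 for covered bases between early-G1 and late-G1 (3136) and 18 to 244 for auxin in covered bases (234). For auxin they were 0 to 22 in early-G1 (10), 2 to 41 in mid-G1 (20), 0 to 27 in late-G1 (26) and 0 to 11 for the stage difference (5), with 6 to 355 in late-G1 and 1 to 56 for the stage difference without 1 library. Same-numbered libraries were not shown to be paired: deviations correlated at 0.019 to 0.29 in rank, above 0.1 in 2 of 6 pairs, and at −0.098 to 0.324 in covered bases, above 0.1 in 1 of 6. The summit pileup, and leaving out both mid-G1 control replicate 1 and late-G1 control replicate 3, were chosen after seeing the data. Prometaphase lists of 2414 to 3918 peaks limit detection at that stage.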
